A study of Homo sapiens with 10 samples.

Results

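Polyamines are made and broken down by a short set of enzymes, and 10 genes of that set were looked for on 10 arrays of A375 melanoma cells. They were chosen by name, as the probe sets whose symbol in the platform annotation was ODC1, AMD1, SRM, SMS, SAT1, SMOX, PAOX, OAZ1, OAZ2 or AZIN1. Of these, 9 had a probe set, 1 each, among 17492 genes with a symbol, and no probe set carried the symbol ODC1, so the first enzyme of the pathway was not analysed here. A375 is a human melanoma cell line in which a mutant BRAF kinase is active. The arrays, Affymetrix Clariom S human HT, held 5 samples of cells plated with doxycycline at 2 µg/ml and 5 samples of control cells plated without it, all frozen on day 4. The series title names Omomyc, a mutant MYC dimerisation domain that blocks MYC-driven transcription, but the labels give neither the construct nor its promoter nor whether the line is a clone. No group is labelled as given doxycycline but lacking Omomyc, so an effect of doxycycline alone cannot be told apart from that of Omomyc. The labels call the arrays of a group biological replicas without saying whether they came from separate cultures, so the p-values rest on sample spread that could be partly technical.

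Putrescine, spermidine and spermine are small, positively charged amines that bind nucleic acids and that dividing cells need in quantity. Ornithine decarboxylase (ODC1) makes putrescine from ornithine, AMD1 supplies the aminopropyl donor from S-adenosylmethionine, and the synthases SRM and SMS add it in turn to give spermidine and spermine. SAT1 acetylates spermidine and spermine for export or for oxidation by PAOX, and SMOX oxidises spermine directly. The antizymes OAZ1 and OAZ2 send ornithine decarboxylase to the proteasome and limit polyamine uptake, and AZIN1, an inactive relative of the decarboxylase, binds the antizymes and blocks them. ODC1 is a textbook target gene of MYC.

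The breakdown genes SAT1 and SMOX were higher in doxycycline-treated cells, and the synthesis genes SMS and SRM were lower. The size of the change was 4.60-fold for SAT1, 2.30-fold for SMOX, 3.02-fold for SMS and 1.46-fold for SRM. AZIN1 and OAZ1 were slightly lower, and AMD1, PAOX and OAZ2 did not pass the test. In all, 2 of the 9 measured genes were called higher and 4 lower with limma at a Benjamini-Hochberg adjusted p under 0.05 over all probe sets. The background was high, since 38.1% of the 18569 probe sets were called, 20.9% higher and 17.2% lower. The 9 genes had a median log2 fold change of -0.04, against 0.04 over all probe sets.

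The array values are log2 signals normalised between arrays, so each change is measured against the rest of the array, and fewer cells of a kind and less RNA per cell cannot be told apart. Array medians lay between 5.02 and 5.10 log2 units. Precision is set by the number of arrays. Of the melanocyte lineage markers, MITF averaged 8.33 ± 0.07 log2 units in doxycycline-treated and 7.12 ± 0.07 in control cells (SD, n = 5 each). SOX10 averaged 8.91 ± 0.11 in doxycycline-treated and 8.71 ± 0.13 in control cells. The pigment genes PMEL, MLANA and TYR averaged 1.83 to 2.49 in either group, under 2.80, the lowest first quartile of any array. Of the 5 measured lineage markers 2 were called higher, MITF and the dim TYR (log2 fold change 0.23, limma, adjusted p = 0.0431). Of 4 fibroblast markers 3 were called higher, where 20.9% of all probe sets were. LUM rose by 1.52, PDGFRB by 1.16 and COL1A1 by 0.32 log2 units, the last with overlapping groups. COL1A2 (0.04) did not pass. The mean of the fibroblast list was 5.14 to 5.35 on doxycycline arrays against 4.37 to 4.64 on control arrays. The leukocyte list had 1 of 3 measured markers higher (CD14), at 2.56 to 2.81 with doxycycline and 2.52 to 2.73 in control. Keratinocyte markers had 1 of 3 higher (KRT5), at 2.38 to 2.66 with doxycycline and 2.45 to 2.70 in control. No endothelial marker of 3 was called, and their mean was 2.50 to 3.05 with doxycycline and 2.54 to 2.73 in control. The part of these markers in the polyamine results was not tested.

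**Figure D1:**
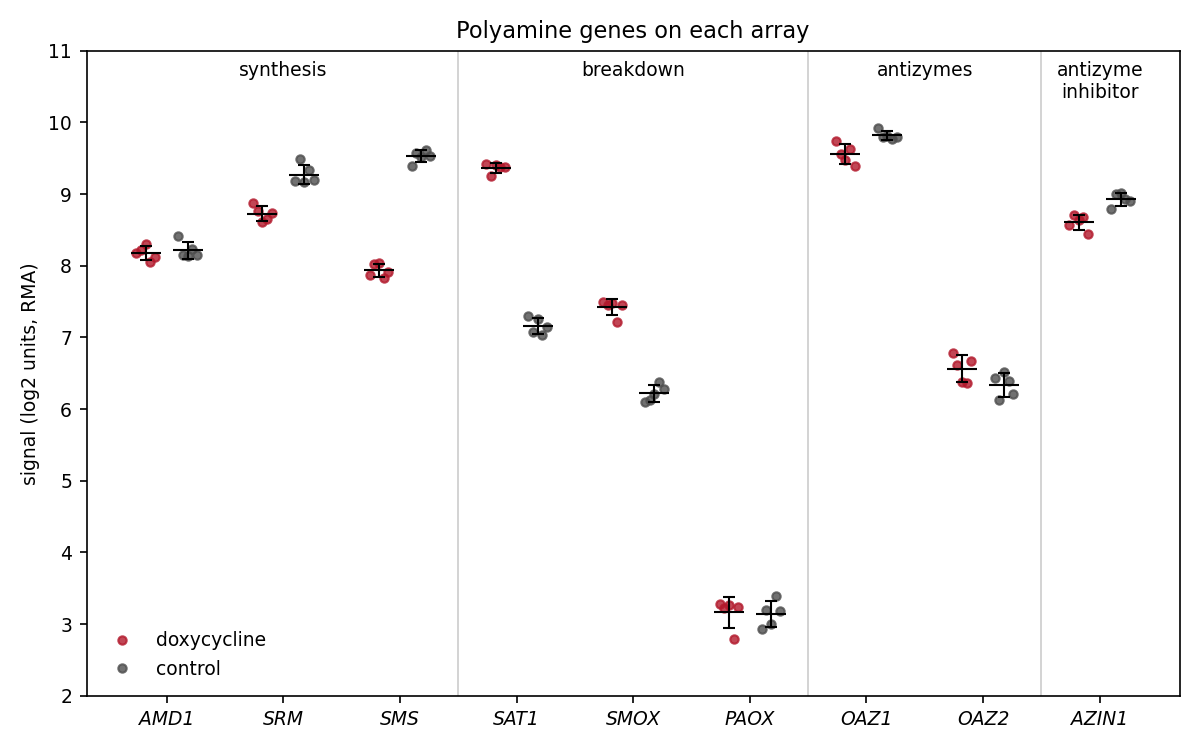
Signal of the 9 measured polyamine genes on each array, in log2 units, for doxycycline (red, left of each pair) and control (grey, right), with the mean and SD over 5 arrays in black. The groups lie apart for SRM, SMS, SAT1, SMOX, OAZ1 and AZIN1 and overlap for AMD1, PAOX and OAZ2.

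Among the synthesis genes, SMS, the spermine synthase, changed most. Its signal was 7.87, 8.03, 8.04, 7.83 and 7.91 log2 units on the doxycycline arrays, against 9.40, 9.58, 9.51, 9.62 and 9.53 on the control arrays. The highest doxycycline array lay well below the lowest control array. The difference was -1.59 ± 0.08 log2 units (SE, 5 arrays per group), a 3.02-fold lower signal (95% interval 2.68 to 3.39), with an adjusted p of 9.85e-10 from limma. In control cells SMS stood above 96.5% of all probe sets, and its fall had rank 267 from the bottom among 18569 fold changes.

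SRM, the spermidine synthase, fell less. It gave 8.87, 8.76, 8.62, 8.65 and 8.74 log2 units with doxycycline and 9.18, 9.49, 9.17, 9.33 and 9.19 in control. These groups did not overlap either. The log2 fold change was -0.54 ± 0.09 (limma, adjusted p = 1.48e-04), or 1.46-fold lower (95% interval 1.28 to 1.66). The fall of SMS exceeded that of SRM by 1.05 ± 0.08 log2 units, computed within each array (two-sided exact permutation test, p = 0.00794, also after adjustment over 3 such pairs). That is the smallest p that 5 against 5 arrays can give.

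AMD1, the S-adenosylmethionine decarboxylase, read 8.17, 8.22, 8.31, 8.06 and 8.12 log2 units with doxycycline and 8.41, 8.16, 8.13, 8.23 and 8.14 in control. The arrays of the groups were interleaved. The log2 fold change of -0.04 ± 0.08 had a 95% interval of -0.22 to 0.14 (limma, adjusted p = 0.773). A fall as large as that of SRM or SMS lies outside this interval. Synthesis genes thus counted 2 lower and 1 not called out of 3 measured, with ODC1 not measured. The 66.7% lower stood against 17.2% of all probe sets called lower and 38.1% called in either direction.

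The sequences before the annotated starts of SMS, SRM and SAT1 are shown because these are the synthesis genes that fell and the breakdown gene that rose most, and because the title names a block of MYC. Each run holds the 250 bases before the start of the gene in RefSeq (GRCh38.p14), written 5′ to 3′ on the strand of the gene. Capitals mark CACGTG, the E-box that MYC and MAX bind, which reads the same on both strands.
SMS, chrX:21940459-21940708, plus strand: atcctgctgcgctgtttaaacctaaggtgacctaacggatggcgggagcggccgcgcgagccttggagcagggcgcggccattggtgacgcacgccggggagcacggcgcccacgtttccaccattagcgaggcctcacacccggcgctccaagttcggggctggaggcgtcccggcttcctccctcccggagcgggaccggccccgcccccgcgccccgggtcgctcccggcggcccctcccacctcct
SRM, chr1:11060019-11060268, minus strand: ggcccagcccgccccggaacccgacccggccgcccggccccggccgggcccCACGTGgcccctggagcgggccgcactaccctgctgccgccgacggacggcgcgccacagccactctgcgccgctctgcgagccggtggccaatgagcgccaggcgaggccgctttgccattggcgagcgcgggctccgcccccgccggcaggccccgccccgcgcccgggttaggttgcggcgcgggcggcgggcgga
SAT1, chrX:23782923-23783172, plus strand: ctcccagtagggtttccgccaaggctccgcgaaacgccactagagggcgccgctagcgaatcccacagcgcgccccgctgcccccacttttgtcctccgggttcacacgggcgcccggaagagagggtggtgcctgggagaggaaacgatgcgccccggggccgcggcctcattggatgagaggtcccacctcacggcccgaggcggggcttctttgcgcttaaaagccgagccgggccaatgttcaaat
The SRM window held 1 CACGTG, at position -199 from the start, and the SMS and SAT1 windows held 0. Of 34788 such windows in the table, 6.31% held this hexamer. RefSeq windows were found for 7 of the 10 listed genes, and those of AMD1, OAZ1 and OAZ2 held 0 as well. Of 2 ODC1 windows, the one at the downstream start held 1 CACGTG, but no ODC1 signal was analysed here. The antioxidant element TGACNNNGC, bound by NRF2 and searched on both strands, was in 0 of the windows of these genes and in 10.9% of all windows. No overlap between the 2 motifs arose in the printed windows. These matches describe letters in a short window and do not show binding. SMS and SAT1 both lie on the X chromosome, with starts 1.84 megabases apart, and their signals moved in opposite directions.

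On the breakdown side, SAT1, the spermidine and spermine acetyltransferase, had the largest change of the 9 measured polyamine genes. It read 9.42, 9.25, 9.41, 9.37 and 9.37 log2 units on the doxycycline arrays, against 7.29, 7.08, 7.26, 7.03 and 7.15 on the control arrays. Every doxycycline array was above every control array by a wide margin. The log2 fold change was 2.20 ± 0.08 (limma, adjusted p = 5.57e-11), or 4.60-fold higher (95% interval 4.08 to 5.18). Its rise had rank 31 from the top among 18569 fold changes. SAT1 is known to be controlled in splicing and translation by polyamines themselves, so its RNA signal is not a measure of the enzyme.

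SMOX, the spermine oxidase, which releases hydrogen peroxide and an aldehyde as by-products, also rose. Its values were 7.49, 7.46, 7.48, 7.22 and 7.45 log2 units with doxycycline and 6.10, 6.12, 6.21, 6.38 and 6.28 in control. The groups lay apart. The log2 fold change was 1.20 ± 0.09 (limma, adjusted p = 3.40e-08), or 2.30-fold higher (95% interval 2.03 to 2.61), with rank 298 from the top.

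PAOX, the oxidase of acetylated polyamines, had a dim signal of 3.28, 3.23, 3.27, 2.79 and 3.24 log2 units with doxycycline and 2.93, 3.20, 3.01, 3.39 and 3.18 in control. The groups overlapped fully, and the control mean stood above only 29.8% of all probe sets, where array signal compresses differences. The log2 fold change was 0.02 ± 0.11 with a 95% interval of -0.23 to 0.27 (limma, adjusted p = 0.921). The change of SMOX exceeded that of PAOX by 1.18 ± 0.07 log2 units (two-sided exact permutation test, 5 arrays per group, p = 0.00794, and 0.00794 adjusted over the 3 pairs). With so dim a PAOX signal, this difference between probe sets does not show that the genes responded differently.

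Set side by side, the synthesis and breakdown genes moved apart on every doxycycline array. Averaged over SRM, SMS and AMD1, the change from the control mean was -0.82 to -0.67 log2 units on the doxycycline arrays and -0.06 to 0.07 on the control arrays. Averaged over SAT1, SMOX and PAOX it was 0.95 to 1.22 on the doxycycline arrays and -0.07 to 0.09 on the control arrays. The breakdown average exceeded the synthesis average by 1.87 ± 0.07 log2 units with doxycycline and by 0.00 ± 0.08 in control (SD, n = 5 each). The control averages are centred on 0 by construction. These averages describe genes chosen with earlier results of these data known and carry no test. AMD1 and PAOX, at log2 fold changes of -0.04 and 0.02, pulled the averages towards 0. The lowest breakdown average, 0.95, was on doxycycline array 4, where SMOX and the dim PAOX read low.

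**Figure D2:**
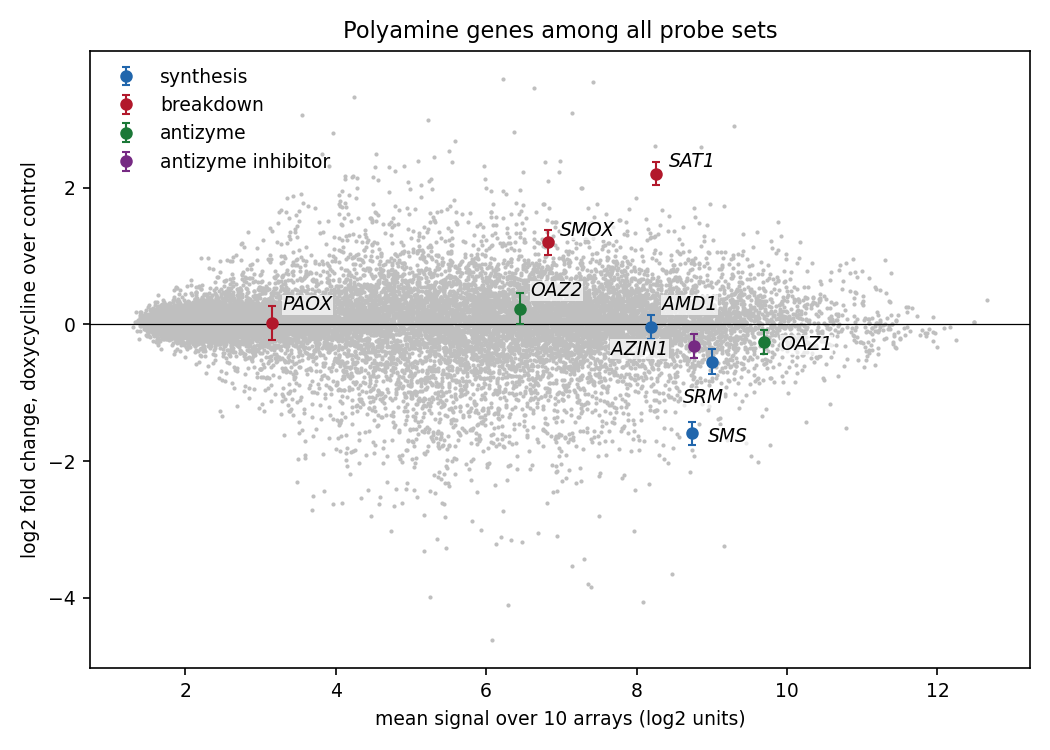
Log2 fold change of doxycycline over control against mean signal over 10 arrays (log2 units) for all 18569 probe sets (grey), with the 9 polyamine genes coloured by role and drawn with their 95% intervals. SAT1 at 2.20 (rank 31 from the top) and SMS at -1.59 (rank 267 from the bottom) lie on opposite sides of 0, while AMD1 and PAOX lie near 0.

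The regulators of ornithine decarboxylase changed little in size. AZIN1, the antizyme inhibitor, read 8.56, 8.71, 8.64, 8.68 and 8.45 log2 units with doxycycline and 8.79, 9.0, 9.02, 8.93 and 8.90 in control, with no overlap. It fell by 0.32 ± 0.08 on the log2 scale (limma, adjusted p = 0.00552), or 1.25-fold (95% interval 1.11 to 1.41).

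OAZ1, the main antizyme, gave 9.74, 9.56, 9.47, 9.63 and 9.39 log2 units with doxycycline and 9.92, 9.79, 9.81, 9.77 and 9.79 in control. The highest doxycycline array lay just under the lowest control array. The fall of 0.26 ± 0.08 log2 units, or 1.20-fold, passed narrowly (limma, adjusted p = 0.0224). It no longer passed without control array 1 (adjusted p = 0.0589), doxycycline array 3 (adjusted p = 0.0582) or doxycycline array 5 (adjusted p = 0.0634).

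OAZ2, the second antizyme, read 6.78, 6.62, 6.37, 6.37 and 6.67 log2 units with doxycycline and 6.43, 6.13, 6.52, 6.39 and 6.21 in control, and the groups overlapped. Its log2 fold change of 0.23 ± 0.11 had a 95% interval of -4.82e-04 to 0.45 (limma, adjusted p = 0.112). The change of OAZ1 was below that of OAZ2 by 0.49 ± 0.11 log2 units over 5 arrays per group. The two-sided exact permutation test gave p = 0.00794, and 0.00794 adjusted over the 3 pairs. The pairs were chosen with earlier results of these data known, and OAZ2 alone was not called. Antizyme protein is made through a ribosomal frameshift that polyamines promote, so antizyme RNA does not give its protein level. The doxycycline arrays lay wholly above the control arrays for 2 of the 9 polyamine genes and wholly below them for 4. Over all probe sets 28.6% did not overlap, 14.9% above and 13.6% below.

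Genes around the pathway were taken from a list by function, of which 39 of 42 had a probe set. Of these 8 rose and 12 fell, 51.3% called against 38.1% of all probe sets. SLC25A15, SLC22A3 and PMF1 had no probe set with that symbol.

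**Figure D3:**
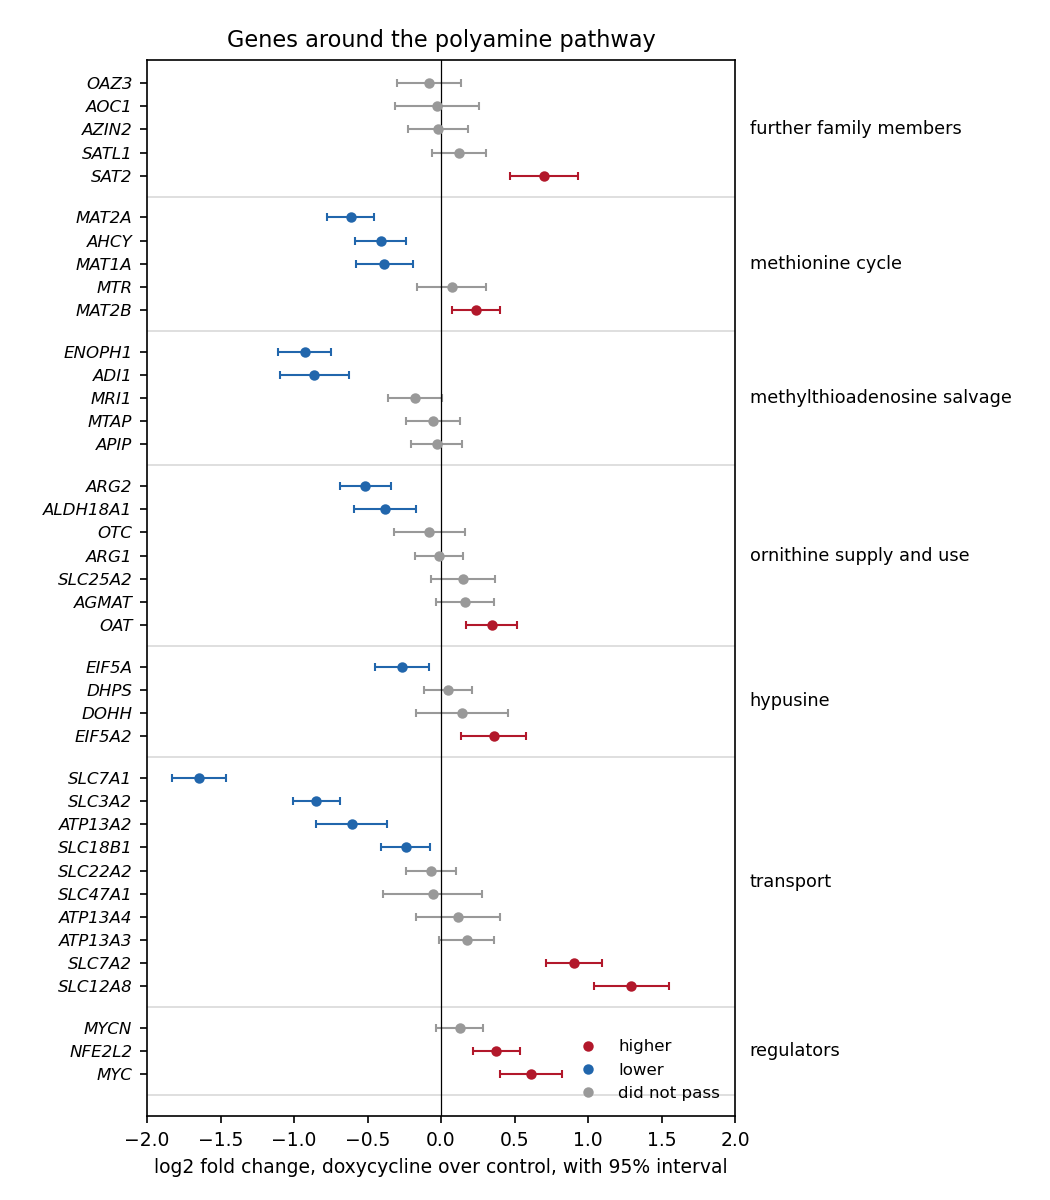
Log2 fold changes of doxycycline over control with 95% intervals for 39 genes around the polyamine pathway, grouped by function, red for those called higher, blue for those called lower and grey for those that did not pass. SLC7A1 at -1.65 and SLC12A8 at 1.30 are the outermost.

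S-adenosylmethionine is the source of the aminopropyl group and is made in the methionine cycle, where RNA of 3 of 5 genes fell and that of 1 rose (80% called, against 38.1% of all probe sets). MAT2A, the catalytic subunit of the S-adenosylmethionine synthetase outside the liver, was at 9.82 to 10.01 log2 units with doxycycline and 10.44 to 10.60 in control (-0.61 ± 0.07, limma, adjusted p = 9.92e-06). Its regulatory subunit MAT2B rose (0.24 ± 0.08, limma, adjusted p = 0.0229), and AHCY, which hydrolyses S-adenosylhomocysteine, fell (-0.41 ± 0.08). The liver form MAT1A fell too (-0.38 ± 0.09), at 1.95 to 2.06 with doxycycline and 2.09 to 2.57 in control, all under the lowest first quartile of the arrays. MTR, the methionine synthase, had a log2 fold change of 0.07.

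The synthases SRM and SMS release methylthioadenosine, which a salvage route returns to methionine, and 2 of its 5 genes fell. At 40% called, this share was near the 38.1% of all probe sets called in either direction. As both called genes were lower, it was above the 17.2% called lower, on only 5 genes. ENOPH1 and ADI1, which act one after the other late in the route, fell by 0.93 ± 0.08 and 0.86 ± 0.11 on the log2 scale (limma, adjusted p = 4.75e-07 and 1.45e-05). Neither overlapped between groups, with ENOPH1 at 6.50 to 6.71 under doxycycline and 7.34 to 7.65 in control. MTAP, the phosphorylase that opens the route, MRI1 and APIP did not pass, at log2 fold changes of -0.18 to -0.03.

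At the ornithine end, 2 of 7 measured genes fell and 1 rose, and the 42.9% called was near the background of 38.1%. ARG2, the mitochondrial arginase that makes ornithine, fell by 0.52 ± 0.08 on the log2 scale (limma, adjusted p = 1.10e-04). ALDH18A1, which opens the route from glutamate to ornithine and proline, fell by 0.38 ± 0.10, with overlapping groups. OAT, which converts ornithine to a proline precursor and back, rose by 0.35 ± 0.08. The other 4, ARG1, AGMAT, OTC and SLC25A2, averaged at most 2.19 log2 units in either group and did not pass.

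Transport genes held the largest changes in either direction among these 39 genes, with 4 of 10 measured lower and 2 higher (60% called, against 38.1% of all probe sets). SLC7A1, the main carrier of arginine, lysine and ornithine in most cells, gave 7.56 to 7.87 log2 units with doxycycline against 9.30 to 9.56 in control. It was 3.13-fold lower (-1.65 ± 0.09, limma, adjusted p = 1.78e-09). Its relative SLC7A2 rose (0.90 ± 0.09), at 5.77 to 6.12 with doxycycline and 4.81 to 5.08 in control. SLC3A2, the heavy chain shared by several amino acid carriers, fell (-0.85 ± 0.08).

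ATP13A2, which moves polyamines out of the lysosome, fell by 0.61 ± 0.11 on the log2 scale (limma, adjusted p = 5.26e-04), whereas its relative ATP13A3 had a log2 fold change of 0.17 and did not pass. SLC18B1, a vesicular polyamine carrier, fell by 0.24 ± 0.08 (limma, adjusted p = 0.0223). That call was lost without control array 1 or 3 or doxycycline array 2 or 3 (adjusted p = 0.0508 to 0.0656). SLC12A8 rose by 1.30 ± 0.12 (limma, adjusted p = 5.83e-07), at 3.87 to 4.31 with doxycycline and 2.38 to 3.03 in control. Only its control values were close to the first quartile of the arrays (2.80 to 2.94). ATP13A4, SLC22A2 and SLC47A1 did not pass. ATP13A4 and SLC22A2 averaged at most 2.26 log2 units in either group, under that quartile.

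Spermidine is the source of hypusine, a modified lysine that the translation factor eIF5A needs, and the enzymes DHPS and DOHH that make it had log2 fold changes of 0.05 and 0.14 and did not pass. EIF5A fell by 0.26 ± 0.09 on the log2 scale (limma, adjusted p = 0.0236), a call lost without any single one of control arrays 2, 3 and 5 and doxycycline arrays 3 and 4 (adjusted p = 0.0520 to 0.0619). Its relative EIF5A2 rose by 0.36 ± 0.10 (limma, adjusted p = 0.0124).

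Of the further relatives of the core genes, SAT2, a homologue of SAT1 that prefers thialysine as substrate, was the only 1 of 5 to pass. At 20% called, this share was below the 38.1% of all probe sets called in either direction and near the 20.9% called higher. SAT2 read 6.95 to 7.36 log2 units with doxycycline and 6.12 to 6.65 in control, and rose by 0.70 ± 0.11 (limma, adjusted p = 1.02e-04). AZIN2, OAZ3, AOC1 and SATL1 lay between -0.08 and 0.12. OAZ3 and SATL1 averaged at most 2.38 log2 units in either group, under the lowest first quartile of the arrays (2.80), where differences are compressed. Among 3 measured transcription regulators, NFE2L2, which encodes NRF2, rose by 0.38 ± 0.07 (limma, adjusted p = 8.36e-04). The MYC probe set rose by 0.61 ± 0.10 but may not separate MYC from an Omomyc transcript, as the labels do not give the construct. MYCN, also dim at an average of at most 2.23 log2 units in either group, did not pass.

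The genes whose signal ran most like that of SAT1 over the 10 arrays were FN1 (Pearson r = 0.997), TCN1 (0.997), CCL2 (0.996) and FBXO32 (0.996). Those most like SMS were ADD2, TIMP3, NETO2 and CCNA2 (Pearson r = 0.997 each). These correlations mostly restate the difference between the groups, as 70 probe sets had an r above 0.99 with SAT1 and 96 with SMS.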

How the data were processed

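Total RNA of A375 cells was hybridised to 1 array per sample. The deposited values are log2 signals of 18569 probe sets made by the authors with RMA, per the submitters' processing notes, which give no version or settings. RMA in its usual form corrects background, quantile-normalizes the arrays and summarises probes. A change of total RNA per cell is not seen on such values, and dim probe sets show compressed differences. Symbols came from the platform annotation (17511 probe sets with 1 symbol, 1058 unnamed here), and promoter windows from RefSeq (GRCh38.p14). Groups came from the sample titles. The groups were compared in limma 3.58.1 (lmFit, then eBayes; R 4.3.3), with group as the only term and all 10 arrays unfiltered. Tests were two-sided, p-values were Benjamini-Hochberg adjusted across the whole array, and a gene was called at an adjusted p under 0.05. Fold change errors are moderated standard errors, and intervals are at 95%. Differences between the changes of SMS and SRM, SMOX and PAOX, and OAZ1 and OAZ2 were tested by exact permutation over arrays (scipy 1.17.1). A further planned pair, ODC1 and AZIN1, could not be formed without an ODC1 probe set. The fit was tested on simulated data. A further gene of the list is not reported here. The other listed genes are accounted for, those called with values, and the 4 genes most like SAT1 and SMS by Pearson r are named. Members, lists and tests were chosen with earlier results of these data known, and the p-values, those of the 3 pairs included, do not allow for that choice. Arrays with the same replicate number showed no shared deviation, and the main fit used no pairing. Alternatives were filters on dim probe sets, other scalings, another spread model, a replicate block and leaving out each array.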

Additional observations from a re-analysis of the deposited data

Results flagged for a closer look

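Of 58 groups of 5 arrays examined (29 genes), 5 held a sample far from the others by Dixon's criterion, where chance gives about 1 in 20. Doxycycline array 4 was low for SMOX, at 7.22 log2 units against 7.45 to 7.49 on the other doxycycline arrays, and for PAOX, at 2.79 against 3.23 to 3.28. Doxycycline array 2 was low for SAT1, at 9.25 against 9.37 to 9.42, and high for MAT1A, at 2.06 against 1.95 to 1.98. Control array 1 was high for OAZ1, at 9.92 against 9.77 to 9.81, and the OAZ1 call was lost without it (adjusted p = 0.0589).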

How the results depend on the processing

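All 6 called polyamine genes kept their direction and their call under both filters on dim probe sets, median centring, repeated quantile normalization, the trended and robust spread model and the replicate block, and PAOX was not tested above the median of signal. The number higher was 2 without any single array, and the number lower was 3 to 4, with OAZ1 the gene lost. Among related genes the number higher was 8 and the number lower 10 to 13 without single arrays, and 7 to 8 and 11 to 12 under the other settings. The filters at the 25th percentile and the median of signal left only 29 and 25 of these 39 genes. MAT1A was not tested under either filter, nor SLC12A8 above the median. Scalings put the median of all log2 fold changes at 0.02 (quantile) and 0.08 (median centring), against 0.04 as deposited.

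Signs turned only for genes that never passed. With median centring AZIN2 was at 0.0163, AOC1 at 0.00487, APIP at 0.00424 and ARG1 at 0.0208, and with repeated quantile normalization PAOX was at -0.0303 and AZIN2 at 0.0356. Without single arrays the ranges that crossed 0 were -0.0708 to 0.011 for AMD1, -0.0345 to 0.113 for PAOX, -0.0638 to 0.00139 for APIP, -0.192 to 0.0218 for SLC47A1, -0.147 to 0.0102 for OTC, -0.0568 to 0.0303 for AZIN2, -0.114 to 0.0531 for AOC1, -0.0343 to 0.0279 for ARG1, -0.0171 to 0.175 for ATP13A4 and -0.0199 to 0.138 for MTR. Without doxycycline array 1, MRI1 passed (-0.23, adjusted p = 0.0340).

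Replicate numbers are shared between groups, but arrays with the same number deviated with correlations of -0.44 to -0.01. Same-numbered arrays thus showed no shared deviation, which does not settle whether the samples were handled in pairs. With the replicate block MAT2B (adjusted p = 0.0564) and SLC18B1 (adjusted p = 0.0608) lost their calls. The 3 pair differences under the replicate block were -1.05, 1.18 and -0.49, at 0.0625, the smallest p that sign changes of 5 pairs can give. Without single arrays they were -1.10 to -0.996, 1.14 to 1.22 and -0.55 to -0.42. Dim genes such as PAOX are limited by their signal, near the first quartile of the arrays.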
